A study of Mus musculus with 4 samples.

Results

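The interleukin 6 family comprised 9 genes here, 5 cytokines (Il6, Il11, Lif, Osm and Clcf1) and 4 receptor chains (Il6ra, Il6st, Lifr and Osmr), out of 18193 genes on the array. They were read by 20 probe sets of the 45037 tested, each annotated to 1 of these symbols and to no other gene. The family was chosen by its measured values: Il6 had the largest shift between the areas among the niche cytokines. The differences between areas given for its members are for that reason a description, and no test was read for them.

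Cytokines of this family are secreted proteins that share a signalling chain. Their receptor complexes all hold gp130, the product of Il6st, some with a receptor chain of the cytokine's own and some with the shared chain LIFR, and this starts JAK kinases and the transcription factor STAT3 inside the cell. In bone, osteoblasts and stromal cells both make and sense these cytokines, which act on osteoblast differentiation, on the support of osteoclast formation through RANKL, and on blood progenitors.

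Cells were sorted from the marrow of adult NOD/SCID recipient mice (strain NOD.CB17-Prkdc scid/J), which lack mature B and T cells, and every group carried this background. The gate took cells without lineage antigens, CD45, CD31 and Sca1 and with CD51, and the labels call them osteoblast cells (OB). They came from the trabecular bone area in 2 samples and from the long bone area in the other 2, with 1 array each, which the titles number as biological replicates. The labels do not say whether a sample was 1 mouse or a pool, nor give the age beyond adult or what the recipients had received, and the spread between arrays may be partly technical. In sorted bulk RNA, fewer cells of a type and less RNA per cell cannot be told apart.

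Each value is a log2 expression value from which the 4-array median of its probe set was taken away. A difference of 1 is a doubling, differences are given as trabecular minus long bone area, and no value is a level: members cannot be ranked by abundance, and the labelled cell type could not be checked by the presence of its markers. Because the median of each probe set is 0, its 2 middle arrays always show the same value with opposite sign. Long bone array 2 stood apart, with an SD over probe sets of 0.484 against 0.271 to 0.312 on the others, and a 5'-end value of the Gapdh control minus its 3'-end value of -1.16, against -0.09 to 0.31 elsewhere. The same quantity for the Actb control did not single out that array, at -0.04, but was highest on trabecular array 1, at 0.44 against -0.07 to 0.07 on the remaining arrays. The 9 probe sets of spiked hybridisation controls also separated the areas without overlap, all lower in the trabecular one, by a median of -0.39.

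The promoter of Il6 is shown because Il6 had the largest difference of the family by gene mean. Those of Il6st, Osmr and Lifr are added, the receptor genes that held the lowest values on other probe sets. Each is the 250 bases before a RefSeq start on build GRCm38.p6, read 5' to 3' on the gene's strand, and capitals mark matches on either strand to the motifs GGNNTTTCC (kappaB, bound by NF-kappaB), TGANTCA (AP-1), TTGNNCAA (C/EBP), TGACGT (CRE) and TTCNNNGAA (STAT).
Il6, chr5:30012864-30013113, plus strand: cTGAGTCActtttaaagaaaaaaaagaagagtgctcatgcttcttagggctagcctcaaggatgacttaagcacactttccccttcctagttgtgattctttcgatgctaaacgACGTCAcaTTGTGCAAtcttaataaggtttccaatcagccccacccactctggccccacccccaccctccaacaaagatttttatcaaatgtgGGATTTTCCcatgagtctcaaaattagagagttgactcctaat
Il6st, chr13:112463820-112464069, plus strand: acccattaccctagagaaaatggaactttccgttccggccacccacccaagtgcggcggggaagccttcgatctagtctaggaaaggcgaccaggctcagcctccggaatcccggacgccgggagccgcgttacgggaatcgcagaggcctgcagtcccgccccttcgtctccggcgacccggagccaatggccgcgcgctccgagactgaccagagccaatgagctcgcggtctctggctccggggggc
Osmr, chr15:6874314-6874563, minus strand: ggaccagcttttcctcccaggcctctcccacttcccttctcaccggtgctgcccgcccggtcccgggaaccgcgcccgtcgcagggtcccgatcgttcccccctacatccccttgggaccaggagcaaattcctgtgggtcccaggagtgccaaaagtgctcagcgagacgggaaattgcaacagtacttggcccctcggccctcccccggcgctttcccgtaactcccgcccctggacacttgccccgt
Lifr, first start, chr15:7129322-7129571, plus strand: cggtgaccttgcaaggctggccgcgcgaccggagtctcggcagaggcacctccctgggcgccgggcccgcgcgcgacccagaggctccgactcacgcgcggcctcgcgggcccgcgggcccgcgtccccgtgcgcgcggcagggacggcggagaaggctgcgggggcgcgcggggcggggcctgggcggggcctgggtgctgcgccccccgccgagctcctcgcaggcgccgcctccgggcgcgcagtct

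The Il6 promoter held a match to 4 of the 5 motifs, none overlapping another: AP-1 from position -249, CRE from -136, C/EBP from -128 and kappaB from -43, counted back from the start. Of 32851 promoter windows of the same length, 6.75% held the AP-1 letters, 6.47% the CRE, 5.65% the C/EBP, 4.93% the kappaB and 7.02% the STAT letters. In the windows of the other 6 members with a RefSeq promoter here, the motifs were found only as AP-1 matches, at -228 in Lif and at -98 before the second start of Il11. The Il6 window was also less rich in G and C, at 42.8% with 3 CpG pairs (median over all windows 52.4% and 6). The other windows shown had 66% with 26 for Il6st, 66% with 18 for Osmr and 82.4% with 43 for Lifr. The windows not shown held 3 pairs at the second Lifr start (50.8%), 1 at the first Il11 start (58.8%) and 12 at the second (64.8%). Lif held 6 (63.6%) and Il6ra 18 (65.2%). A letter match is not evidence of binding.

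By gene mean, Il6 was lower in the trabecular area by the widest margin of the 9 genes. Of the other 8, 7 lay on the same side with smaller differences. Il6 had 1 probe set, while 1 of the 3 probe sets of Lifr (-3.55) and of Osmr (-3.35) lay lower than it. Counted by gene, with the mean of its probe sets, 8 of 9 members had both trabecular arrays below both long bone ones (21.4% of all genes), and Osm had them above (29.9% of all genes). Il6, Lifr and Osmr, 3 of the 9, were at least 2-fold lower with no overlap (1.17% of all genes). The median difference over the 9 was -0.55, and that over all genes 0.03. With limma, 0% of genes and 0% of probe sets were called at an adjusted p under 0.05, so no member, and no other gene below, passed the test. Because the contrast chose the family, nothing is read from these counts.

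Among the cytokines, Il6 (1450297_at), which marrow stroma makes, read -0.80 on trabecular array 1 and -1.81 on trabecular array 2, against 0.80 and 1.88 for the long bone pair. Both trabecular arrays lay below both long bone arrays, and within each area array 2 was the more extreme. Means were -1.31 ± 0.71 (SD, n = 2) for the trabecular and 1.34 ± 0.76 (SD, n = 2) for the long bone arrays, a difference of -2.65 (SE 0.51), or 6.28-fold. SEs here and below are those of the limma gene fit, which draws each gene's variance towards that of all genes. Among 18193 genes ordered by difference Il6 was number 24 from the lowest.

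Il11, which acts on bone formation through its own receptor and gp130, differed far less. It stood at -0.31 and -0.20 on the trabecular arrays and at 0.20 and 0.24 on the long bone arrays. The difference was -0.47 (SE 0.12), with no overlap and with replicates close to each other in both areas. The spiked hybridisation controls moved the same way by a median of -0.39, whereas the median over all genes was 0.03. Lif 1421207_at and Il6ra 1422270_a_at below, at -0.49 and -0.39, were also near the size of that control shift.

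Clcf1, a cytokine that signals through the receptor of ciliary neurotrophic factor together with Lifr and gp130, was read by 3 probe sets. On 1437270_a_at it followed the order of Il6, with -0.31 and -0.95 on the trabecular and 0.31 and 0.95 on the long bone arrays, a difference of -1.26. The other probe sets gave -0.25 (1437271_at, overlapping) and -0.14 (1450262_at, no overlap, but overlapping after quantile normalization or median centring of the arrays), so that the gene mean was -0.55. Both smaller values depended on single arrays: 1437271_at was at -0.08 without long bone array 2, and 1450262_at at -0.04 without long bone array 1. In the other direction they reached -0.43 without long bone array 1 and -0.23 when long bone array 2 was left out.

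Lif, the ligand of Lifr, had 2 probe sets, both designed on the same sequence record, and they disagreed. On 1421207_at the trabecular arrays were at -0.24 and -0.20 and the long bone arrays at 0.35 and 0.20, a difference of -0.49. On 1450160_at the 4 arrays lay between -0.07 and 0.03 and overlapped, with a difference of 0.05 (0.02 to 0.09 with 1 array left out).

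Osm, which mature blood cells such as macrophages and neutrophils make and which acts on bone cells through Osmr and Lifr, was the member on the other side. It read 0.91 on trabecular array 1 and 0.15 on trabecular array 2, against -0.35 and -0.15 in the long bone area, a difference of 0.78 (SE 0.29). The areas did not overlap, but trabecular array 1 lay far above the rest, and without it the difference was 0.39.
Of 7 macrophage markers, 4 were highest on that same array. The median over all 7 was 0.53 there, against -0.23 on trabecular array 2, and -0.05 and 0.10 in the long bone area. The other 3, Mrc1, C1qa and C1qb, were lower in the trabecular area, with differences of -0.43, -0.595 and -1.04, the last with overlap. The medians of 7 neutrophil markers lay between -0.07 and 0.01, but single genes moved more. Elane and Mpo were lowest on trabecular array 1, at -1.04 and -0.43, whereas S100a9, Ltf and Camp were highest there, at 0.01, 0.01 and 0.04. The part of either cell type in the Osm value was not tested.

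**Figure D1:**
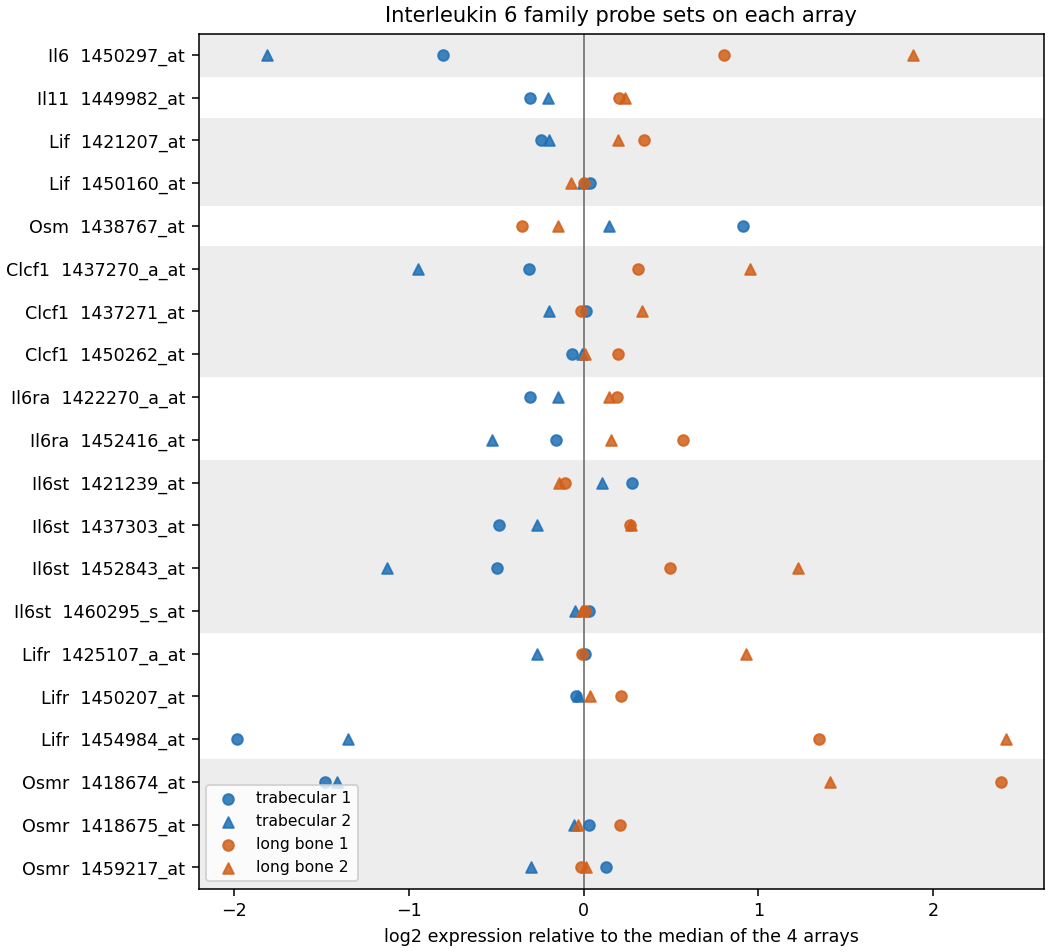
Log2 expression relative to the 4-array median (horizontal axis) of the 20 probe sets of the family (rows, grouped by gene with shading), 1 point per array, blue for trabecular and orange for long bone. Il6, Lifr 1454984_at and Osmr 1418674_at show the widest gaps between the areas, while other probe sets of Lifr and Osmr lie close to 0, and Osm is turned the other way.

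The receptor chains gave the lowest values of the family, but on single probe sets. Lifr, which pairs with gp130 for LIF and Clcf1, was read by 1454984_at at -1.98 and -1.35 on the trabecular arrays and at 1.35 and 2.42 on the long bone arrays. The areas were far apart, with a difference of -3.55 or 11.7-fold, number 31 from the lowest among 45037 probe sets (Il6 was number 117). The other Lifr probe sets did not share that gap. On 1425107_a_at only long bone array 2 was high, at 0.93, with the others between -0.27 and 0.01, a difference of -0.59 that was -0.12 without that array and -1.06 without long bone array 1. It overlapped as deposited, but not after quantile normalization (-0.53) or median centring of the arrays (-0.59). On 1450207_at the difference was -0.16, and it was -0.07 without long bone array 1 and -0.25 when array 2 of that area was left out. The mean of the 3 gave -1.43 and their median -0.73 for the gene.

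Osmr, the chain that recognises oncostatin M, showed the same split. On 1418674_at it was at -1.48 and -1.41 in the trabecular area and at 2.39 and 1.41 in the long bone area, a difference of -3.35 or 10.2-fold, number 45 from the lowest. Here, unlike for Il6 and Lifr, long bone array 1 was the higher of the pair. The probe set 1418675_at, designed on the same sequence record, differed by -0.10, and 1459217_at by -0.09, both with overlap. Their sign turned with 1 array left out, to 0.02 without long bone array 1 and to 0.13 without trabecular array 2, and they were at -0.22 without long bone array 2 and -0.30 without trabecular array 1. The gene mean was -1.18, whereas the median of its probe sets gave -0.25.

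Il6st, the shared chain gp130, was read by 4 probe sets that spanned both directions. On 1452843_at it was at -0.50 and -1.12 in the trabecular and at 0.50 and 1.23 in the long bone area, a difference of -1.67 with the order of arrays seen for Il6. On 1437303_at the difference was -0.64, with both long bone arrays at 0.27. The remaining pair, designed on 1 shared record, gave 0.32 on 1421239_at, higher in the trabecular area without overlap, and -0.01 on 1460295_s_at, with overlap (-0.05 to 0.03 with 1 array left out). The suffix s marks a probe set whose probes can match transcripts of more than 1 gene.

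Il6ra, the chain that binds IL-6 itself, was the receptor on which the probe sets lay closest. On 1422270_a_at it was at -0.31 and -0.15 on the trabecular arrays and at 0.19 and 0.15 on the long bone arrays. On 1452416_at it was at -0.16 and -0.53 against 0.57 and 0.16. Neither overlapped between the areas, and the differences were -0.39 and -0.70, with -0.55 for the gene.

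By probe set, 12 of 20 had no overlap and lay lower in the trabecular area (26.2% of all probe sets). Another 2 were higher with no overlap (29.9% of all genes, the share of probe sets was not counted), and 6 overlapped. At 5 of the 20 the trabecular area was at least 2-fold lower with no overlap (2.71% of all probe sets), namely those of Il6, Lifr, Osmr, Il6st and Clcf1 with the largest gaps above. The gap between the lowest and the highest difference within a gene was 3.38 for Lifr, 3.26 for Osmr, 1.99 for Il6st and 1.12 for Clcf1. Over the 4315 genes with at least 3 probe sets the median gap was 0.60, and 0.255% of them had a gap as wide as that of Lifr, 0.301% as that of Osmr, 2.99% as that of Il6st and 16.8% as that of Clcf1. Why the probe sets of a gene disagreed was not tested, and the positions of their probes in the transcript were not used here.

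**Figure D2:**
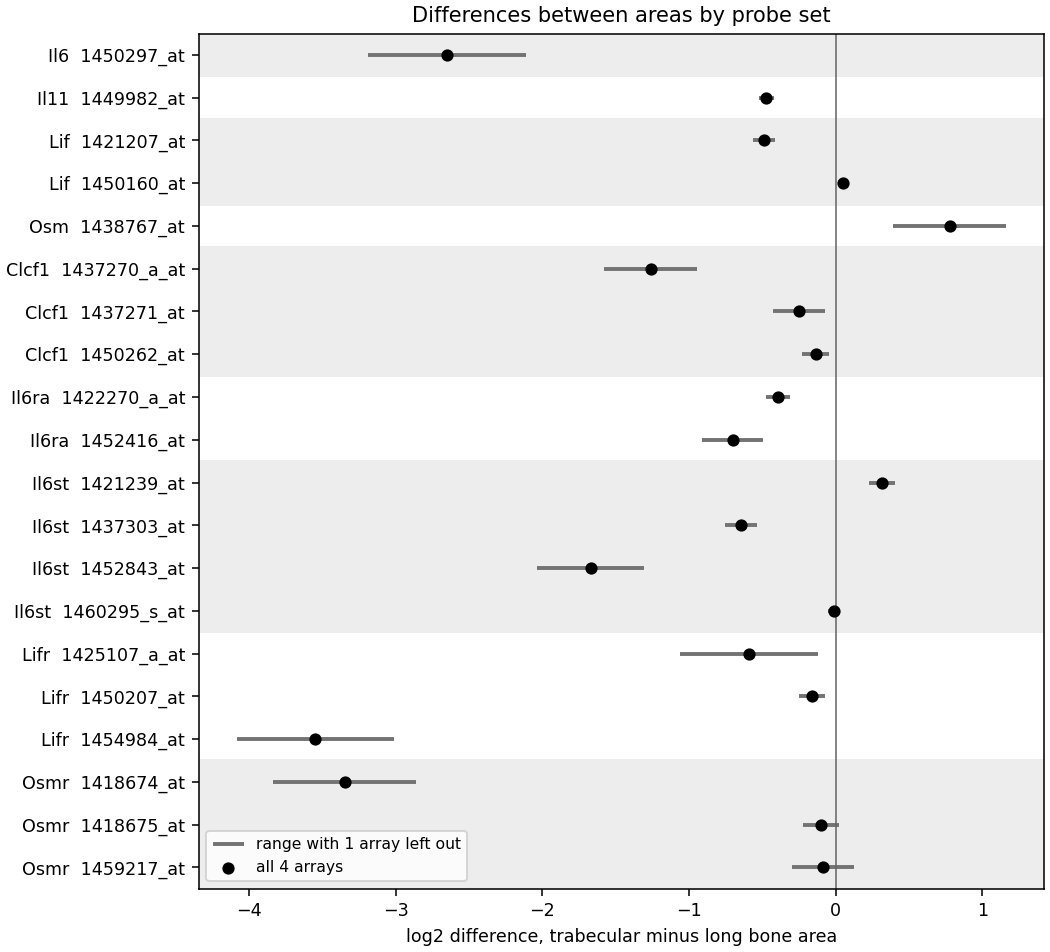
Log2 difference between the areas, trabecular minus long bone (horizontal axis), for each probe set of the family. Points are the differences over 4 arrays and bars span the values with 1 array left out in turn. The bars of Il6, Lifr 1454984_at, Osmr 1418674_at and Il6st 1452843_at stay below -1, at -2.11 or lower for Il6.

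Lifr and Osmr are neighbours on chromosome 15, with no other protein-coding gene between them in RefSeq, and were both lower in the trabecular area. Of the genes on either side of this pair, Rictor differed by -0.19 with overlap and Egflam by 0.19 without overlap. Osm and Lif are neighbours on chromosome 11 in the same way, but had opposite signs, at 0.78 and -0.22. Next to Il6st on chromosome 13 lies Il31ra, the gp130-like receptor of interleukin 31, which differed by -0.41 with no overlap, and by -0.24 without long bone array 2.

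The genes with the 4-array profile most like that of Il6, by Euclidean distance between gene means, were Tnc (0.29), Htra1 (0.32), Col6a1 (0.56), 5031426D15Rik (0.57) and Vasn (0.58). Tenascin C (Tnc) is a matrix glycoprotein, Htra1 a secreted protease, Col6a1 a chain of collagen VI and Vasn a membrane protein that binds TGF-beta. Tnc was at -0.78 and -1.56 in the trabecular and at 0.78 and 1.74 in the long bone area, and the 5 genes differed by -2.09 to -2.72. Among the family's own probe sets, Il6st 1452843_at was nearest to Il6, at a distance of 1.05, followed by Clcf1 1437270_a_at (1.45) and Lifr 1454984_at (1.48), and Osm was farthest at 3.49. With 4 arrays such distances only describe these samples.

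The markers of bone and stromal cells moved between the areas too. All 7 chondrocyte markers lay lower on the trabecular side without overlap, with medians of -1.42 and -1.61 on the trabecular and 1.96 and 1.61 on the long bone arrays. The 6 measured osteoblast markers were all lower with no overlap, with a median difference of -1.35. All 6 fibroblast markers were lower, 5 with no overlap, with a median difference of -1.67. Over all genes, 45.4% were lower in the trabecular area and 21.4% were lower with no overlap. All 7 reticular stroma markers were highest on long bone array 2, with a median of 1.76, and lowest on trabecular array 2, at -0.59. Trabecular array 1 and long bone array 1 were at 0.10 and -0.07 for these markers.
Il6 was also highest on long bone array 2 and lowest on trabecular array 2. Of the 6 fibroblast markers, 4 were highest on long bone array 2 and all 6 lowest on trabecular array 2. Without long bone array 2 the difference of Il6 was -2.11. The median difference was then -0.18 for reticular, -1.45 for fibroblast, -1.45 for osteoblast and -3.43 for chondrocyte markers. Osmr 1418674_at was highest on long bone array 1, as were 5 of the 7 chondrocyte markers, 2 of the 6 osteoblast and 2 of the 6 fibroblast markers. Endothelial markers had a median difference of 0.01. The part of any of these cell types in the values of the family was not tested.

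**Figure D3:**
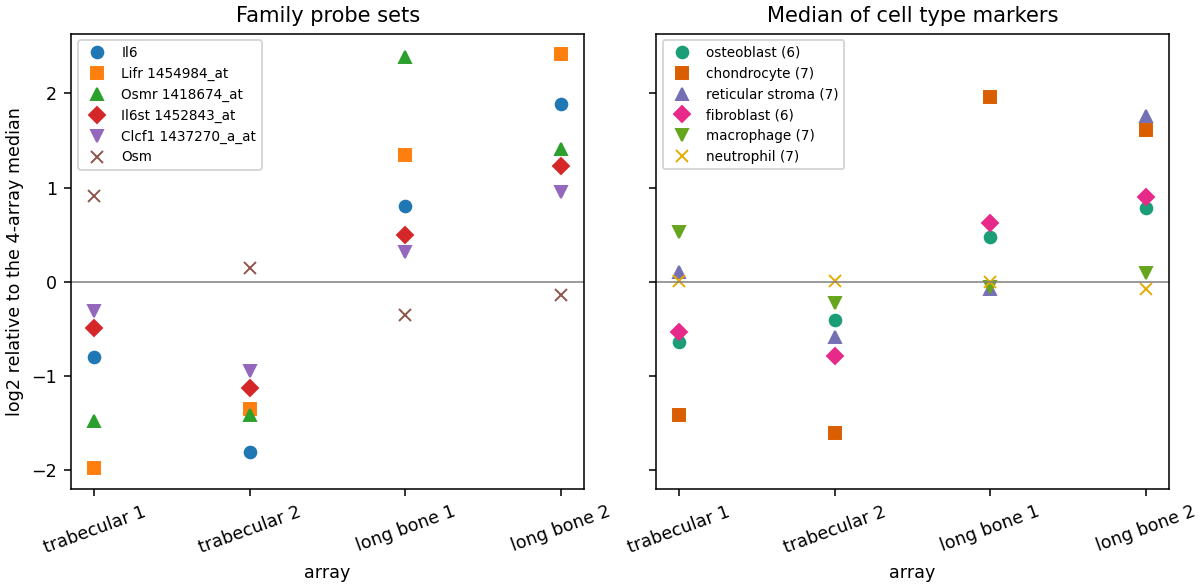
Log2 values relative to the 4-array median on each array (horizontal axis) for 6 probe sets of the family (left) and for the median of 6 lists of cell type markers, number of genes in brackets (right). Each family probe set shown is the one of its gene with the largest difference in either direction. Others of the receptor genes have smaller gaps, and Il6st 1421239_at lies on the other side. The medians of chondrocyte, fibroblast and osteoblast markers lie below 0 on both trabecular and above 0 on both long bone arrays. Il6 and the receptor probe sets shown do so too, while the median of the reticular markers is high on long bone array 2, at 1.76.

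Other genes of the pathway lay on both sides. Of all genes, 45.4% were lower in the trabecular area, and 21.4% were lower and 29.9% higher with no overlap. Over 6 lists with 104 different measured genes, 0 genes were called by limma (adjusted p 0.24 at the lowest, 16 genes at an unadjusted p under 0.05 against 15.5% of all genes), and 46 had no overlap between the areas (51.4% of all genes). Of 8 other ligands and receptors of the gp130 family, 3 were higher and 1 lower with no overlap, with a median of 0.00. Ebi3, a subunit of interleukin 27, differed by 0.54, with 0.26 and 0.24 on the trabecular and -0.34 and -0.24 on the long bone arrays. Il31 and Cntfr, the other members higher with no overlap, differed by 0.16 and 0.08, and by 0.07 and 0.03 without trabecular array 1 (0.25 and 0.13 without trabecular array 2).

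Of 19 genes of signal transduction, 15 lay higher on the trabecular side and 4 lower (8 and 2 with no overlap), with a median of 0.27. The kinase gene Jak2 differed by 0.50, Stat5b by 0.64 and the adaptor gene Grb2 by 0.58. Stat3, the main transcription factor of the pathway, was at -0.02 and 0.27 on the trabecular arrays and at 0.11 and -0.62 on the long bone arrays. It overlapped, with a difference of 0.38, which was 0.02 without long bone array 2 and 0.74 when array 1 of that area was left out. Of the 19 genes, 11 were lowest on long bone array 2, and the median of the list without it was 0.02. Without long bone array 2, Jak2 was at 0.24 and Grb2 at 0.34. The inhibitor gene Socs2 and the adaptor gene Gab1 lay on the other side, at -0.94 and -0.43, and at -0.50 and -0.21 without that array. Without long bone array 1, Jak2 was at 0.77 and Gab1 at -0.65.

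The 29 response genes, which STAT3 and related factors are known to induce, did not lean to one side. Of these, 17 were higher and 12 lower (9 and 4 with no overlap), with a median of 0.16 that was -0.05 without trabecular array 1 and -0.08 without long bone array 1. Socs3, the feedback inhibitor that binds gp130, was at 0.21 and -1.37 on the trabecular and at -0.21 and 1.60 on the long bone arrays. It overlapped, and its difference of -1.27 was -0.48 without trabecular array 2 and -0.37 without long bone array 2, and -2.06 without trabecular array 1 and -2.18 without long bone array 1. Klf6, a zinc finger transcription factor, the survival gene Mcl1 and Lrg1, a secreted glycoprotein, differed by 1.14, 0.80 and 0.72 with no overlap. Timp1, an inhibitor of matrix proteases, differed by -0.94, Muc1, a membrane mucin, by -0.40, and Fgg, a fibrinogen chain, by -0.33 (-0.17 without trabecular array 2).

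Of 33 inflammatory cytokines and inducers, 20 were higher and 13 lower (7 and 5 with no overlap), with a median of 0.15 that was -0.10 without trabecular array 1 and 0.36 without trabecular array 2. The chemokine genes Cxcl1 and Ccl2, often released together with Il6, lay on its side. Cxcl1 was at -0.17 and -1.25 on the trabecular and at 0.17 and 1.23 on the long bone arrays, in the same order as Il6, and differed by -1.41 (-0.88 without long bone array 2 and -0.87 without trabecular array 2). Ccl2 differed by -0.99, but by -0.25 without long bone array 2 and -1.73 when array 1 of that area was left out. Il1r1, the interleukin 1 receptor, differed by -0.30. On the other side were Myd88 (0.86), an adaptor of Toll-like receptors, Rela (0.64), a subunit of NF-kappaB, and the antagonist Il1rn (0.81, and 0.52 without trabecular array 1). Il1b, named after its values were seen, read 2.22 on trabecular array 1, where Osm was highest too, and -0.17 to 0.15 elsewhere, so that its difference of 1.03 was -0.17 without that array.

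The 8 genes of receptor shedding, by which soluble IL-6 receptor is released, were split, with 6 higher and 2 lower and a median of 0.10 (-0.01 without long bone array 2, 0.21 without long bone array 1). Timp3, an inhibitor of these proteases, differed by -0.70 and Rhbdf1, a partner of the sheddase ADAM17, by -0.77 (-0.37 without long bone array 2), both with no overlap. Nrd1, a metalloprotease, and Adam9 differed by 0.68 and 0.17, and by 0.18 and 0.03 without long bone array 2. Without long bone array 1, Rhbdf1 was at -1.18, Nrd1 at 1.17 and Adam9 at 0.32.

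Of 9 genes of osteoclast control, 8 lay lower on the trabecular side, 3 of them without overlap, with a median of -0.28 that was 0.01 without long bone array 2 and -0.54 with array 1 of that area removed. Tnfsf11, which encodes RANKL, read 2.02 on long bone array 2 and -0.33 to 0.05 elsewhere, and its difference of -1.11 was -0.07 without that array and -2.16 without long bone array 1. Its decoy receptor gene Tnfrsf11b was at 1.97 on long bone array 1 and between -0.20 and 0.06 elsewhere, and its difference of -1.16 was -0.20 without that array and -2.11 without long bone array 2. Pth1r, the parathyroid hormone receptor, differed by -1.09 with no overlap, and by -0.65 without long bone array 2, and Tnfrsf11a by -0.13 (-0.02 without long bone array 2).

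**Figure D4:**
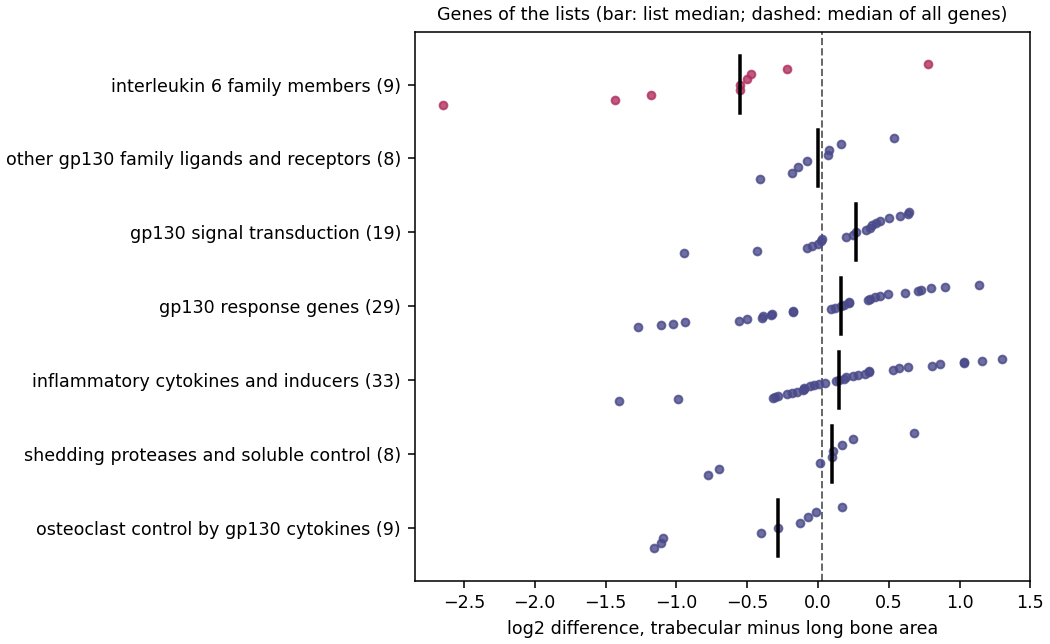
Log2 difference between the areas, trabecular minus long bone (horizontal axis), for each measured gene of the family and of 6 pathway lists (rows, number of genes in brackets), sorted within a row. Black bars are list medians and the dashed line is the median of all genes, 0.03. The family lies lowest, with a median of -0.55, but it was picked for the shift of Il6, so nothing is read from its place.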

How the data were processed

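The authors' deposited values are log2 expression of 45101 probe sets on 4 arrays of sorted mouse cells; RMA is named per the submitters' processing notes, with no version. Each probe set was also centred: all 45101 medians over the 4 arrays lie within 1e-06 of 0. The base of 2 was taken from RMA's usual output, and how the centring was done is not stated in the labels. A human array is named in the design text, whereas the probe sets are those of a mouse annotation. Control probe sets (64) were left out, 34945 probe sets had 1 gene and gave 18193 genes, each the mean of its probe sets, and symbols matched RefSeq GRCm38.p6. All probe sets and all genes were fitted with limma 3.58.1 in R 4.3.3 (lmFit, eBayes, Benjamini-Hochberg at 0.05; 2 residual degrees of freedom), tested on simulated data. With 2 arrays in each area, the smallest two-sided p of an exact permutation test is 0.333. Between any pair of arrays 65 to 107 probe sets held identical values.

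The members and the gene lists were chosen with earlier results of these data known. Named are all members, up to 3 genes per list and direction with the largest differences without overlap, Socs3 and Stat3, and the 5 profiles nearest to Il6; Tnfsf11 and Il1b were added after their values were seen. Some listed genes were not analysed here. Other marker lists had median differences of 0.03 (mast cell and basophil), 0.22 (T and NK cell), -0.05 (B cell; -0.22 to 0.29 with 1 array left out) and -0.34 (Ptprc; -0.88 to 0.20). Promoters of Osm and Clcf1 were not used here.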

Additional observations from a re-analysis of the deposited data

How the results depend on the processing

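For each of the 9 members the sign of the gene's difference was the same under quantile normalization, median centring of the arrays and the median of the probe sets. It was also the same with each array left out, but there it could not turn, since no member's gene value overlapped between the areas. Il6 ranged from -3.19 to -2.11, Osm from 0.39 to 1.16, Lifr from -1.74 to -0.73 and Osmr from -1.38 to -0.25, the last value of both being the median of the probe sets. Single probe sets turned the sign for Lif (0.05 on 1450160_at) and Il6st (0.32 on 1421239_at). After quantile normalization or median centring, Clcf1 1450262_at overlapped and Lifr 1425107_a_at no longer did. The number of members lower with no overlap was 8 throughout, and 7 with the median of the probe sets. With 1 array left out this count could not fall, so those settings lend it no support.

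The limma count at an adjusted p under 0.05 was 0 for probe sets and genes. Whether members were among the calls of other settings was not read. The count was 281 of 45037 probe sets and 40 of 18193 genes with a trend in the prior variance. Among the more variable part of the probe sets it was 224 of 22518. For genes it ranged from 0 to 1603 with 1 array left out, the highest with long bone array 1 removed, and 1 call with long bone array 2 removed. With the replicate block, the replicate number of the titles as a term, 0 probe sets and 0 genes were called (5707 and 2450 at an unadjusted p under 0.05, against 7325 and 2811). The deviations of same-numbered arrays correlated at -0.181, so the crossed pairing was added after seeing the data; it called 0 of both.

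The pathway genes with no overlap numbered 46, and from 69 to 84 with 1 array left out, where fewer arrays overlap less often by construction. With 1 array left out, list medians ranged from -0.24 to 0.0705 for other family members, 0.021 to 0.35 for signal transduction, -0.0826 to 0.22 for response genes, -0.10 to 0.36 for inflammatory genes, -0.01 to 0.21 for shedding and -0.54 to 0.01 for osteoclast control. Having 2 arrays per area limits every value.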
